A study of Mus musculus with 24 samples.

Results

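The vacuolar proton pump, the cathepsins and the LAMP glycoproteins were followed in perigonadal fat of mice that overexpress lipoprotein lipase in adipocytes. The members were chosen by gene symbol alone: subunits of the V0 and V1 sectors, the accessory subunits Atp6ap1 and Atp6ap2, the cathepsins named by a single letter, and Lamp1 and Lamp2. Atp6v0d2 and Ctss were left out of the list and are given separately. The rule found 42 genes of 24647 with a symbol on the array, with 45 transcript clusters (the probe sets of the array, each standing for a transcript locus), and each gene was represented by its cluster of highest mean. The genes fell into 7 role groups, with 8 subunits of V0, 13 subunits of V1, 2 accessory subunits, 13 cysteine cathepsins, 2 aspartic cathepsins, 2 serine peptidases and 2 LAMP glycoproteins.

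The 12 AdipoQ-LPL mice (genotype AdipoQ-LpL -/+) carried a lipoprotein lipase transgene under the adiponectin promoter, which is active in adipocytes, and the 12 Control mice were littermates without it (AdipoQ-LpL -/-). All were male, 9.5 weeks old, on the C57BL/6 background, and were fed a diet with 60% of calories from fat for 10 days. RNA of the whole fat pad was hybridised to Affymetrix mouse 2.0 arrays, with 1 array for each mouse and no pooling. Values are log2 signals after RMA normalization, so a difference of 1 is a 2-fold change, and levels of different genes cannot be set against each other because each probe set has its own brightness.

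The V-ATPase is the rotary pump that acidifies lysosomes: the cytosolic V1 sector hydrolyses ATP and turns the membrane-bound V0 sector, which carries the protons. Cathepsins are the peptidases that work in the acid it makes, and LAMP1 and LAMP2 are the abundant glycoproteins of the lysosomal membrane. Many of these genes share a promoter element bound by TFEB and its relatives, and in fat, macrophages that clear lipid and dying adipocytes are known for their large lysosomal compartment, while adipocytes use lysosomes for autophagy and the breakdown of lipid.

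The promoters were read first, because the TFEB element is the feature that pump subunits and cathepsins are known to share. RefSeq promoters on GRCm38.p6, from 250 bases before to 50 after the annotated start, were found for 33 of the 42 genes (37 promoters). The 8-base element TCACGTGA, which is its own reverse complement and holds the shorter CACGTG, was present in 5 of these 33 genes (15.2%), against 304 of 27025 genes with a promoter in the table (1.12%). The shorter CACGTG was in 9 of 33 (27.3%) against 2187 of all (8.09%), the additional genes being Atp6v0b, Ctsf, Ctsl and Lamp1. A match describes letters in this window and not a bound site. The 5 genes are shown with 30 bases on the gene's own strand, 5′ to 3′, the element in capitals.
Atp6v0d1 (chr8:105566050-105566079, minus strand): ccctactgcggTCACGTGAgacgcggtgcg
Atp6v0e (chr17:26676387-26676416, plus strand): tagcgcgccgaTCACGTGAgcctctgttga
Atp6v1a (chr16:44139373-44139402, minus strand): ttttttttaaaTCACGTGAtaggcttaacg
Ctsa (chr2:164833749-164833778, plus strand): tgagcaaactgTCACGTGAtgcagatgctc
Ctsa (chr2:164833766-164833795, plus strand): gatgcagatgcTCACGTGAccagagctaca
Ctsd (chr7:142387908-142387937, minus strand): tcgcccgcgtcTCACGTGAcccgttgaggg

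In Atp6v0d1 the element began 4 bases before the annotated start and in Atp6v0e 2 bases after it, whereas in Ctsd it lay 99 and in Atp6v1a 132 bases upstream. Ctsa held it 2 times in 1 promoter, 13 bases before and 4 bases after the same annotated start, so that the printed windows overlap. Between AdipoQ-LPL and Control mice the 5 genes had a median log2 difference of 0.02, against 0.00 for the 23 tested members with a promoter in the table and no 8-base element. Across mice, after the genotype and array set means had been removed, the 5 genes correlated with a median r of 0.47 over 10 pairs. These ran from -0.24 (Atp6v1a with Ctsa) to 0.54 (Ctsa with Ctsd). The median was 0.04 over 253 pairs of members without it. With or without the element, the widely expressed pump subunits had a median r of 0.33 among themselves and the cathepsins 0.36. This is a description over the same 24 arrays, and the part of the element in it was not tested.

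The arrays fell into 2 sets that followed low and high animal numbers in the labels; the labels do not call them batches. The first set held 8 AdipoQ-LPL and 5 Control mice and the second 4 AdipoQ-LPL and 7 Control mice. Array medians were 6.86 to 6.97 in the first set and 7.22 to 7.29 in the second, and 16753 of 20208 clusters tested (82.9%) differed between the sets, 34 of 37 members tested among them, with a median member shift of -0.31 (first minus second). The array set was therefore a term of every fit unless stated. In 3 mice, AdipoQ-LPL 8, Control 3 and Control 7, the root mean square deviation over all clusters from the mean of genotype and set was above 0.3. It was 0.339 to 0.418 in these and 0.150 to 0.294 in the other mice, the highest of them, Control 6, being just under that cut. Lpl itself did not mark the genotype: its bright cluster spanned 13.28, 13.48 and 13.84 (lowest, median, highest) in AdipoQ-LPL mice and 13.34, 13.65 and 13.82 in Control mice (difference -0.02, limma adjusted p = 0.856). A dimmer Lpl cluster differed by 0.06 (limma adjusted p = 0.868), at -0.15 in the first set and 0.31 in the second. The labels were used as given. Whether these probes read the transgene is not known. If they do not, the differences are those of the endogenous gene alone.

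Of the 42 genes, 37 passed the floor of a mean log2 signal of 5 in either genotype. The 5 below it were Ctsg, a neutrophil granule peptidase (3.32 to 5.34 over all mice), and Ctsj (3.11 to 4.25), Ctsm (2.41 to 3.61), Ctsq (2.68 to 3.98) and Ctsr (3.48 to 4.97), which belong to a cathepsin family expressed in the rodent placenta. All 23 pump genes and 12 of 17 cathepsins were tested.

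No member passed the limma test after Benjamini-Hochberg adjustment over all clusters (lowest adjusted p = 0.494), where 2 of 20208 clusters did (0.0099%), Snd1 and Lrrc4. At an unadjusted p under 0.05, 4 of 37 members (10.8%) stood out, against 8.37% of all clusters. Ctsf, Ctsz and Ctsc were higher in AdipoQ-LPL mice, against 5.87% of all clusters higher, and Atp6v0a2 was lower, against 2.5% of all clusters lower. The members as a whole were centred on 0, with 21 above and 16 below and a median of 0.00, against 0.01 for all clusters. Of the cathepsins 10 of 12 were above 0 (median 0.07, range -0.03 to 0.21), and of the pump genes 9 were above and 14 below 0 (median -0.02), where 53.7% of all clusters were above 0; the groups were not tested against each other. Atp6v1g3, counted among those below 0, passed the floor only through the Control mice (mean 4.76 in AdipoQ-LPL and 5.07 in Control mice).

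**Figure D1:**
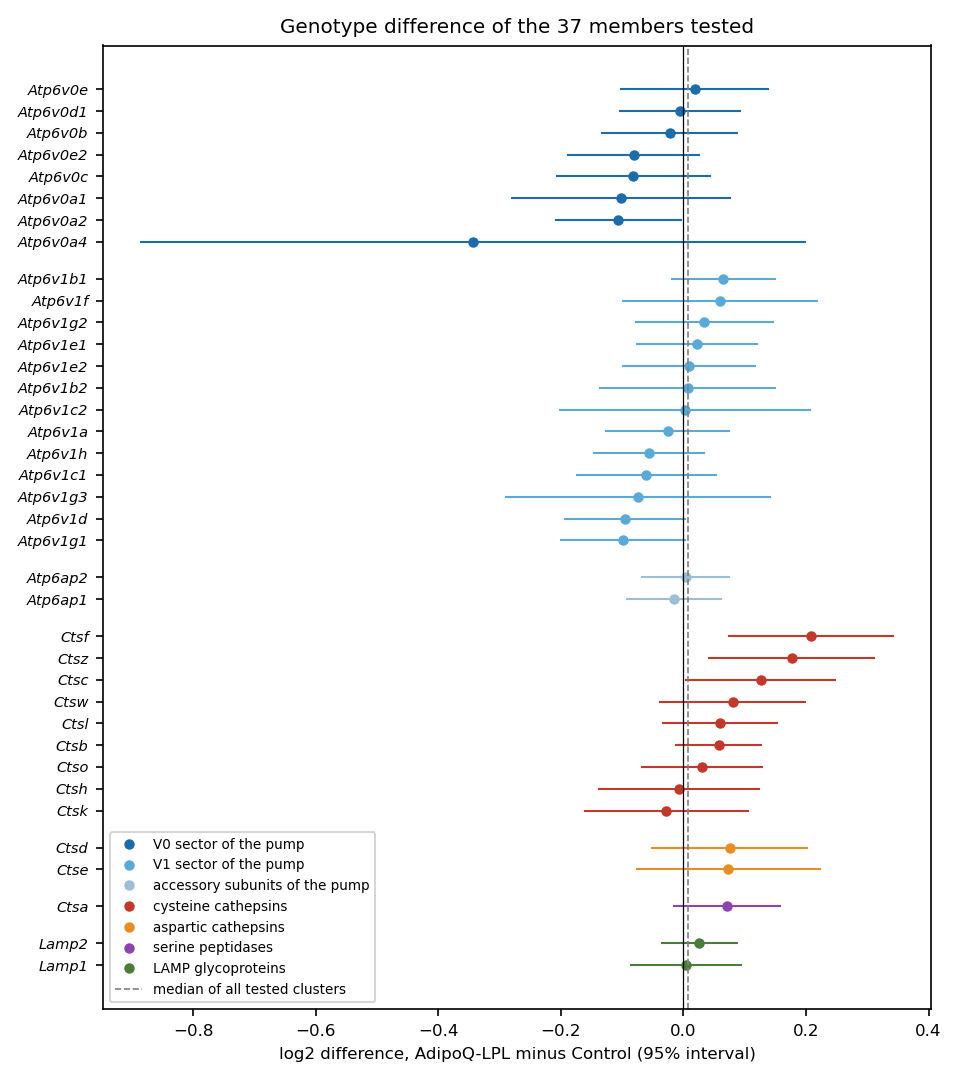
Log2 difference, AdipoQ-LPL minus Control, of the 37 members tested, with the array set in the limma fit and 95% intervals, by role group. The dashed line is the median of all clusters tested (0.01); the interval leaves out 0 for Ctsf, Ctsz, Ctsc and Atp6v0a2 only, and the widest interval is that of Atp6v0a4.

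In the V0 sector, 1 of 8 subunits was above 0 (Atp6v0e, a small membrane subunit, 0.02) and 7 were below, with a median of -0.08. Atp6v0a2, the a-subunit isoform known from endosomes and the Golgi apparatus, spanned 9.18, 9.30 and 9.62 (lowest, median, highest) in AdipoQ-LPL mice and 9.24, 9.46 and 9.70 in Control mice. The ranges overlapped over most of their width, but only 1 of 12 AdipoQ-LPL mice lay above the Control mean of its own set. The difference was -0.11 (SE 0.0490, 95% interval -0.21 to -0.00, p = 0.0398, limma adjusted p = 0.58), a fold of 0.929. Within the first set it was -0.14 (exact permutation p = 0.0241) and in the other -0.07 (p = 0.448 by the same test). It kept an unadjusted p under 0.05 in 10 of the 24 fits that left out 1 mouse, with p from 0.00952 to 0.0950.

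The other a subunits differed by -0.10 (Atp6v0a1, the a isoform known best from neurons) and -0.34 (Atp6v0a4, the isoform of kidney intercalated cells and the epididymis). Atp6v0a4 was the most scattered member. It spanned 5.20, 5.84 and 6.98 in AdipoQ-LPL mice and 5.22, 6.14 and 7.62 in Control mice, and the SE of its difference was 0.26 (p = 0.199, adjusted p = 0.723). The values at the top came from few mice: AdipoQ-LPL 8 had 6.98, and Control 3, 7 and 11 had 7.44, 7.62 and 6.80, against 5.20 to 6.33 in the others. The first 3 are the mice that deviated most over all clusters, and without them the difference was -0.15. The list of epididymis markers, of which 6 of 8 were above the floor and 5 of those 6 had a genotype difference below 0, overlapped with these mice in part. Crisp1 (mean 4.43 in AdipoQ-LPL and 6.14 in Control mice) and Adam7 (4.67 and 5.80) passed the floor only through the Control mice. The count below 0 is therefore partly set by the floor. Adam7, a gene of the epididymis, was 6.00 in AdipoQ-LPL 8 and 6.79, 7.57 and 7.53 in Control 3, 7 and 11, and was also above 6 in AdipoQ-LPL 10 (6.08), Control 4 (6.26) and Control 5 (8.17), against 4.06 to 5.43 in the other mice. The mean of the list, relative to the gene means over all mice, was highest in Control 6, 5 and 9 (2.50, 1.72 and 1.44) and lay between -0.54 and 0.18 in the 3 deviating mice. Over all mice it ranged from -0.70 to 0.22 in AdipoQ-LPL and from -0.63 to 2.50 in Control fat. The part of epididymis tissue in the Atp6v0a4 values was not tested.

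Atp6v0e2, an isoform of the e subunit, had the lowest p of all members for a contrast between sets. In the first set it averaged 9.74 ± 0.15 in AdipoQ-LPL (SD, n = 8) and 9.94 ± 0.08 in Control mice (n = 5), a difference of -0.20 (exact permutation p = 0.0179). In the second it averaged 10.17 ± 0.05 in AdipoQ-LPL (n = 4) and 10.11 ± 0.06 in Control mice (n = 7), a difference of 0.06 (exact permutation p = 0.121). Over both sets Atp6v0e2 differed by -0.08 (SE 0.0515, limma p = 0.129, adjusted p = 0.669). Tested directly, the first-set difference minus the second-set difference was -0.26 (unadjusted p = 0.00785, limma adjusted p = 0.603). Of the 37 members 2 had an interaction at an unadjusted p under 0.05, against 7.95% of all clusters, and none of 20208 clusters passed after adjustment. The proteolipid ring genes Atp6v0c and Atp6v0b differed by -0.08 and -0.02, and Atp6v0d1, which couples the ring to the stalk, by -0.01.

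In the V1 sector 7 of 13 subunits were above 0 and 6 below, with a median of 0.00 and none at an unadjusted p under 0.05. The catalytic pair differed little: Atp6v1a, which hydrolyses ATP, differed by -0.03 and Atp6v1b2, the widely expressed B subunit, by 0.01. Atp6v1d, a subunit of the central rotor, spanned 8.09, 8.37 and 8.84 in AdipoQ-LPL mice and 8.41, 8.63 and 8.95 in Control mice. Most of the spread was between sets, and 2 of 12 AdipoQ-LPL mice lay above the Control mean of their set. Its difference was -0.10 (SE 0.0472, p = 0.0540, adjusted p = 0.601), at -0.16 in the first set (exact permutation p = 0.00855) and -0.02 in the second (p = 0.833 by the same test).

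Atp6v1g1, the common G subunit of the peripheral stalks, spanned 7.99, 8.22 and 8.85 in AdipoQ-LPL mice and 8.16, 8.66 and 8.91 in Control mice. The groups overlapped, with 1 of 12 AdipoQ-LPL mice above the Control mean of its set. The difference was -0.10 (SE 0.0489, p = 0.0547, adjusted p = 0.601), and again it was larger in the first set, -0.16 (exact permutation p = 0.0357), than in the second, -0.02 (p = 0.703 by the same test), although the difference between sets did not pass a test. Atp6v1h, a regulator that links hydrolysis to the sector's attachment, differed by -0.06, Atp6v1c1 by -0.06 and Atp6v1e1 by 0.02.

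The B isoform of kidney and epididymis, Atp6v1b1, spanned 5.69, 5.81 and 6.27 in AdipoQ-LPL mice and 5.69, 5.93 and 6.21 in Control mice, near the floor, and the groups overlapped fully. Its difference was 0.07 (SE 0.0403, p = 0.12, adjusted p = 0.658). The 7 tissue-restricted isoforms of the pump split 4 above to 3 below 0, and the 16 widely expressed subunits 5 above to 11 below, with a range of -0.11 to 0.06. The accessory subunits, Atp6ap1 (-0.02, p = 0.678, adjusted p = 0.908) and Atp6ap2 (0.00), the prorenin receptor, were among the steadiest genes. Atp6ap1 spanned 10.27, 10.40 and 10.79 in AdipoQ-LPL mice and 10.34, 10.59 and 10.82 in Control mice.

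**Figure D2:**
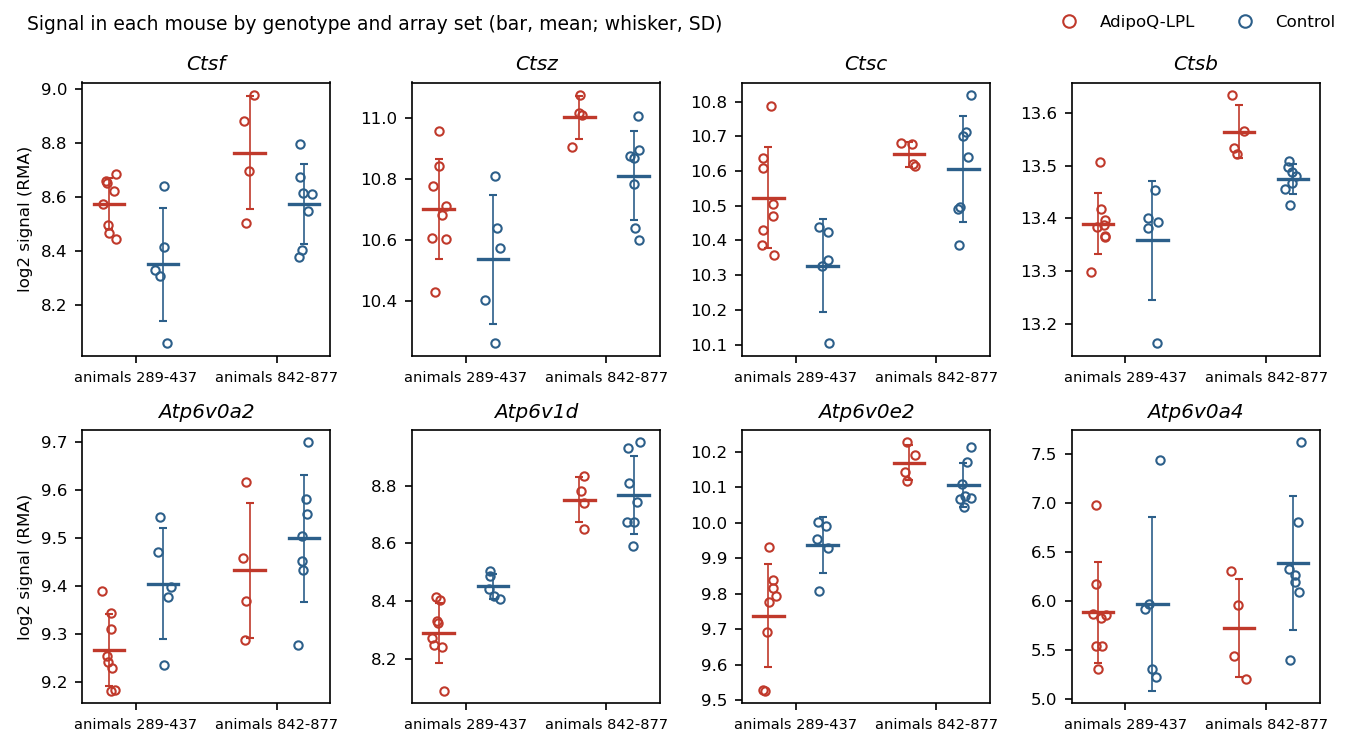
Log2 signal of 8 members in every mouse, by array set and genotype, AdipoQ-LPL left of Control, with mean and SD. Ctsf and Ctsz lie higher in AdipoQ-LPL mice in both sets, Ctsb is separated in the second set only, Atp6v0e2 differs in opposite directions, and Atp6v0a4 is set by a few bright mice.

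Among the cysteine cathepsins, 7 of 9 tested were above 0 (median 0.06). Ctsf, an endopeptidase of lysosomes, had the largest difference of the positive ones and the lowest p of all members. It spanned 8.44, 8.64 and 8.98 in AdipoQ-LPL mice and 8.06, 8.48 and 8.79 in Control mice. The groups overlapped, with AdipoQ-LPL shifted upward in both sets: 8.57 ± 0.09 (SD, n = 8) against 8.35 ± 0.21 (n = 5) in Control mice of the first set, and 8.76 ± 0.21 (n = 4) against 8.58 ± 0.15 (n = 7) in the second. The difference was 0.21 (SE 0.0645, 95% interval 0.07 to 0.34, p = 0.00358, adjusted p = 0.494), a fold of 1.16, and 11 of 12 AdipoQ-LPL mice lay above the Control mean of their set. It was 0.22 in the first set (exact permutation p = 0.0179) and 0.19 in the second (p = 0.118 by the same test), and p stayed between 0.000711 and 0.0112 when any 1 mouse was left out.

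Ctsz, the carboxypeptidase also called cathepsin X, spanned 10.43, 10.81 and 11.07 in AdipoQ-LPL mice and 10.26, 10.71 and 11.01 in Control mice. Within sets it averaged 10.70 ± 0.16 against 10.54 ± 0.21 in Control mice of the first, and 11.00 ± 0.07 against 10.81 ± 0.15 in the second. The groups overlapped in both, and 11 of 12 AdipoQ-LPL mice lay above the Control mean of their set. The difference was 0.18 (SE 0.0647, 95% interval 0.04 to 0.31, p = 0.0117, adjusted p = 0.51), a fold of 1.13, at 0.16 in the first set (exact permutation p = 0.138) and 0.19 in the second (p = 0.0394 by the same test). Leaving out 1 mouse gave p from 0.00265 to 0.0342.

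Ctsc, the dipeptidyl peptidase that activates the granule proteases of leukocytes, spanned 10.36, 10.61 and 10.79 in AdipoQ-LPL mice and 10.10, 10.46 and 10.82 in Control mice, so that the Control range enclosed the other. All 12 AdipoQ-LPL mice nevertheless lay above the Control mean of their own set. The difference was 0.13 (SE 0.0581, 95% interval 0.01 to 0.25, p = 0.0405, adjusted p = 0.584), a fold of 1.09. It was 0.20 in the first set (exact permutation p = 0.0295) and 0.04 in the second (p = 0.609 by the same test). The unadjusted p was under 0.05 in 15 of the 24 fits without 1 mouse and reached 0.112 without Control 3.

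Ctsb, an abundant endopeptidase and carboxypeptidase, was nearly constant, spanning 13.30, 13.41 and 13.63 in AdipoQ-LPL mice and 13.16, 13.46 and 13.51 in Control mice. In the second set the genotypes did not overlap: AdipoQ-LPL mice had 13.63, 13.57, 13.53 and 13.52, and Control mice 13.43 to 13.51, a difference of 0.09 (exact permutation p = 0.00303, the smallest that 330 relabellings can give). It was the only member of 37 whose genotypes did not overlap there, where 1.48% of all clusters were separated and 1.05% in that direction, and no member was separated in the first set, against 0.351% of all clusters. In the first set the difference was 0.03 (exact permutation p = 0.547), and over both 0.06 (SE 0.0333, p = 0.0974, adjusted p = 0.649).

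Ctsk, the collagen-degrading cathepsin of osteoclasts, was lower by 0.15 in the first set and higher by 0.12 in the second, with an interaction of -0.27 (unadjusted p = 0.0344). Ctsl, a broad endopeptidase, differed by 0.06, Ctsw, a cathepsin of cytotoxic lymphocytes, by 0.08, Ctso by 0.03 and Ctsh, an aminopeptidase, by -0.01. The aspartic cathepsins were both above 0. Ctsd, the main aspartic peptidase of lysosomes, spanned 12.33, 12.64 and 12.85 in AdipoQ-LPL mice and 12.26, 12.59 and 12.81 in Control mice, and the groups overlapped nearly completely. It differed by 0.08 (SE 0.0608, p = 0.225, adjusted p = 0.736), and Ctse, known from endosomes of immune and gastric cells, by 0.07.

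Ctsa, the serine carboxypeptidase that also shields beta-galactosidase and neuraminidase in the lysosome, spanned 10.31, 10.48 and 10.78 in AdipoQ-LPL mice and 10.13, 10.61 and 10.78 in Control mice. The ranges coincided at the top, and 9 of 12 AdipoQ-LPL mice lay above the Control mean of their set. The difference was 0.07 (SE 0.0415, p = 0.0994, adjusted p = 0.65), at 0.12 in the first set (exact permutation p = 0.0730) and 0.01 in the second (p = 0.715 by the same test). Without the array set in the model it was -0.01.

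The LAMP glycoproteins lay near 0. Lamp2, needed for autophagosome fusion and chaperone-mediated autophagy, spanned 10.80, 10.97 and 11.26 in AdipoQ-LPL mice and 10.84, 11.17 and 11.31 in Control mice, a spread that was nearly all between sets. Its difference was 0.03 (SE 0.0297, p = 0.388, adjusted p = 0.81), and that of Lamp1 was 0.00. With the array set left out, Lamp2 turned to -0.05, 2 of 37 members (Atp6v0a2 and Atp6v1d, both lower) had an unadjusted p under 0.05 against 5.63% of all clusters, members lay 6 above to 31 below 0, and the median of all clusters moved to -0.08. The pump was then 1 above to 22 below and the cathepsins 5 above to 7 below, with medians of -0.01 for the cathepsins and -0.10 for the pump. In that fit only 21.1% of all clusters were above 0.

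Set by set, most cathepsins lay above 0 in both, while most pump genes lay below 0 in the first set only. Ctse, Ctsh and Ctsk changed sign between the sets, and no member's difference between sets passed after adjustment. Of all clusters 48.9% were above 0 in the first set and 57.5% in the second. In the first set 11 of 12 cathepsins were above 0 (median 0.07) and in the second 10 of 12 (median 0.09). Of the 12, 9 were higher in both sets and none was lower in both, where 28.9% of all clusters were higher in both and 22.6% lower in both. The pump was 3 above to 20 below in the first set (median -0.07), with all 8 subunits of V0 below 0, and 15 above to 8 below in the second (median 0.03). In the first set 7 of 37 members had an unadjusted p under 0.05 against 8.1% of all clusters (Ctsf, Ctsc and Ctse higher, and Atp6v0a2, Atp6v1d, Atp6v1g1 and Atp6v0e2 lower), and in the second 1 of 37, Ctsz, against 9.38%.

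**Figure D3:**
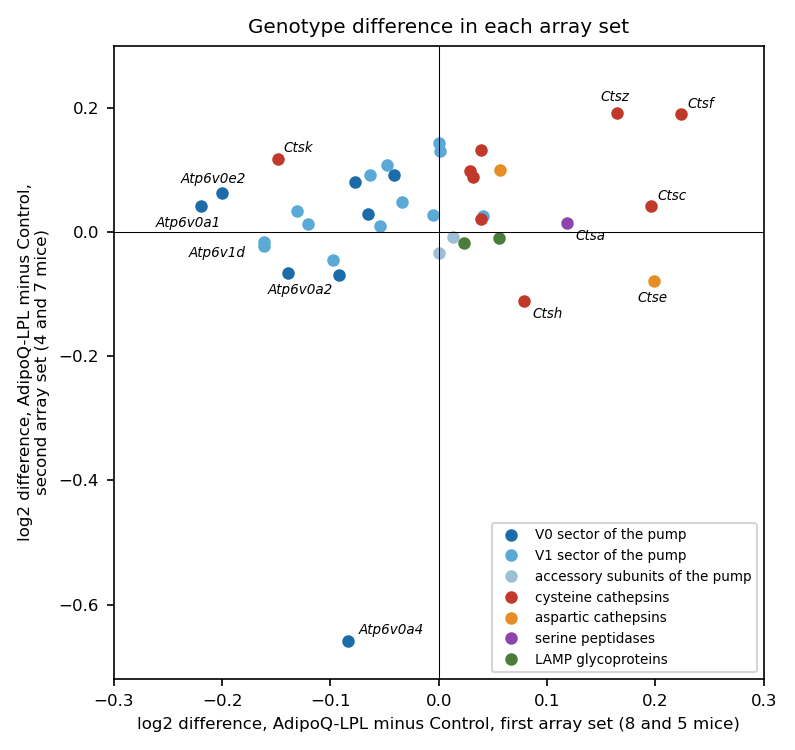
Log2 difference, AdipoQ-LPL minus Control, of each member in the first array set (x) and in the second (y). Cathepsins gather where both are above 0 (9 of 12), while most pump genes lie left of 0 on the x axis (20 of 23).

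Macrophage markers lay above 0 beside the cathepsins. All 11 macrophage markers tested were above 0 (median 0.19) and 5 of 11 were higher at an unadjusted p under 0.05, against 5.87% of all clusters, with none past the threshold after adjustment. In the first set all 11 were above 0 (median 0.31) and in the second 9 of 11 (median 0.10). Over both sets Csf1r differed by 0.27, C1qa by 0.26 and Mrc1 by 0.22. None was at background, the dimmest, Fcgr1, having a mean of 7.30. The mean of the list, relative to each marker's mean over all mice, ranged from -0.09 to 0.49 in AdipoQ-LPL and from -0.66 to 0.02 in Control mice of the first set, and from -0.04 to 0.25 in AdipoQ-LPL and from -0.14 to 0.25 in Control mice of the second. Of the lipid-associated macrophage markers 1 of 6 was above 0 and 5 below (median -0.15), with 3 above and 3 below in the first set and all 6 below in the second. Cytotoxic lymphocyte markers were 5 of 6 above 0 (median 0.12), neutrophil markers 4 of 5 (0.09), mesothelium markers 4 of 5 (0.08), mast cell markers 4 of 5 (0.06), adipocyte markers 9 of 10 (0.03), fibroblast markers 4 of 7 (0.02), osteoclast-like markers 2 of 5 (-0.00) and endothelium markers 0 of 5 (-0.04). Oscar, an osteoclast-like marker with a mean of 4.85 over all mice, passed the floor only through the Control mice. The part of these marker lists in the cathepsin differences was not tested. In RNA of a whole fat pad, more cells of a type and more RNA per cell cannot be told apart.

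With the macrophage marker mean as a covariate beside the array set, an alternative chosen after seeing the data, none of 37 members had an unadjusted p under 0.05, against 4.26% of all clusters. Ctsf was then 0.12 (p = 0.0743), Ctsz 0.06 (p = 0.302), Ctsc 0.00 (p = 0.954), Ctsa -0.01 and Atp6v0a2 -0.08 (p = 0.152). The part of macrophage content in the cathepsin differences was not tested. Without the 3 deviating mice, also chosen after seeing the data, 3 of 37 members had an unadjusted p under 0.05, against 7.34% of all clusters. Ctsf was 0.16 (p = 0.0135), Ctsz 0.15 (p = 0.0178), Ctsc 0.08 (p = 0.188) and Atp6v0a2 -0.12 (p = 0.0344).

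Across mice, both genotypes together, most cathepsins were positively correlated with the macrophage marker mean. The median r of the 12 cathepsins was 0.72 in the first set and 0.52 in the second, with 11 of 12 positive in each, and that of the 23 pump genes -0.01 and -0.12. Over 814 correlations (37 members, 11 marker lists and 2 sets), 6 passed a permutation test after adjustment by Pearson's r and 1 by Spearman's rho. For macrophage markers these were, in the 13 mice of the first set, Ctsc (r = 0.93, p = 1e-05, the smallest that 100000 permutations can give, adjusted p = 0.00814, rho = 0.86, p = 0.00038, adjusted 0.103) and Ctsa (r = 0.91, p = 0.00028, adjusted p = 0.0456, rho = 0.78, p = 0.00265, adjusted 0.174). Without the 2 mice farthest from the median they were 0.76 and 0.61. In the second set the r of Ctsa was 0.83, of Ctsz 0.82 and of Ctsc 0.78, and none passed (permutation adjusted p = 0.0984, 0.0984 and 0.12). Both measures carry the genotype difference.

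**Figure D4:**
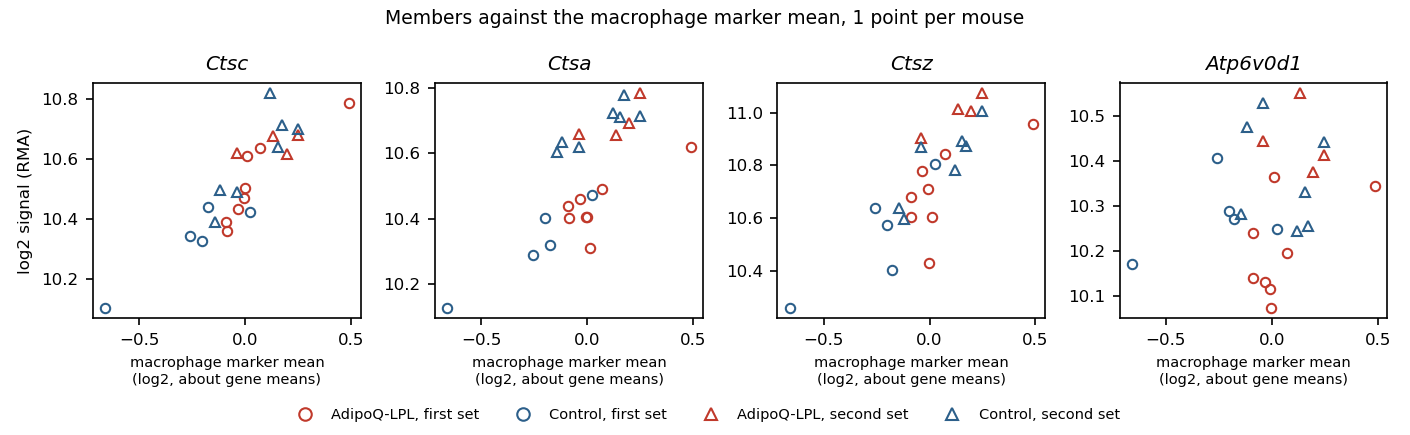
Log2 signal of Ctsc, Ctsa, Ctsz and Atp6v0d1 against the macrophage marker mean of the same mouse, by genotype and array set. Ctsc, Ctsa and Ctsz climb with the markers within each set, with r of 0.93, 0.91 and 0.81 in the first.

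The other pairs that passed joined Atp6ap1 to adipocyte markers in the second set (r = -0.89, rho = -0.85, without 2 mice -0.81), Ctsa to cytotoxic lymphocyte markers in the first (0.87, rho = 0.66, without 2 mice 0.67), Atp6v1e2 to the same markers in the second (0.90, rho = 0.77, without 2 mice 0.68) and Atp6v1d to neutrophil markers in the first (-0.87, rho = -0.87, without 2 mice -0.77). By rho only, Ctsl passed with mast cell markers in the second set (rho = -0.95, r = -0.79, without 2 mice -0.76). Adjusted permutation p-values by r were 0.0456, 0.0456, 0.0461 and 0.0366 for the first 4, and by rho 0.0326 for Ctsl. Each was found in 1 set alone, and the sets were not tested against each other. After centring the arrays, no correlation with cytotoxic lymphocyte or neutrophil markers passed in the first set by r. Both lists were dim, their brightest markers, Nkg7 and Prtn3, having means of 6.78 and 6.64.

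Among themselves, the widely expressed pump subunits and the cathepsins each correlated mostly positively, with wide ranges. After removal of the genotype and set means, the 16 widely expressed pump subunits correlated with a median r of 0.33 over 120 pairs (79.2% above 0, from -0.55 to 0.84). The 12 cathepsins had a median of 0.36 over 66 pairs (81.8% above 0, from -0.58 to 0.77), and the 7 tissue-restricted pump isoforms 0.05 over 21 pairs. The widely expressed pump subunits with cathepsins gave a median of 0.11 over 192 pairs, from -0.66 to 0.71, all members 0.10 over 666 pairs, and members with all clusters 0.02. These are descriptions over pairs that share the same 24 arrays.

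The tightest 2 pairs joined subunits of the pump and the next 2 cathepsins. Atp6v0a1 and Atp6v1b2 had r = 0.84, also without the 3 deviating mice, Atp6v1e1 and Atp6v1h 0.79 (0.67 without them), and Atp6v0a1 and Atp6v0d1 0.75 (0.79). Among the peptidases, Ctsb went with Ctsz (0.77) and with Ctsa (0.77), and both were 0.71 without the 3 mice. Negative pairs were Atp6ap1 with Atp6v1g2 (-0.71, and -0.67 without them), Atp6v1g1 with Ctsz (-0.66, -0.52) and Ctsf with Ctsh (-0.58, -0.37). The r of -0.58 between Atp6v0a4 and Atp6v0e rested on the 3 mice, being 0.10 without them.

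**Figure D5:**
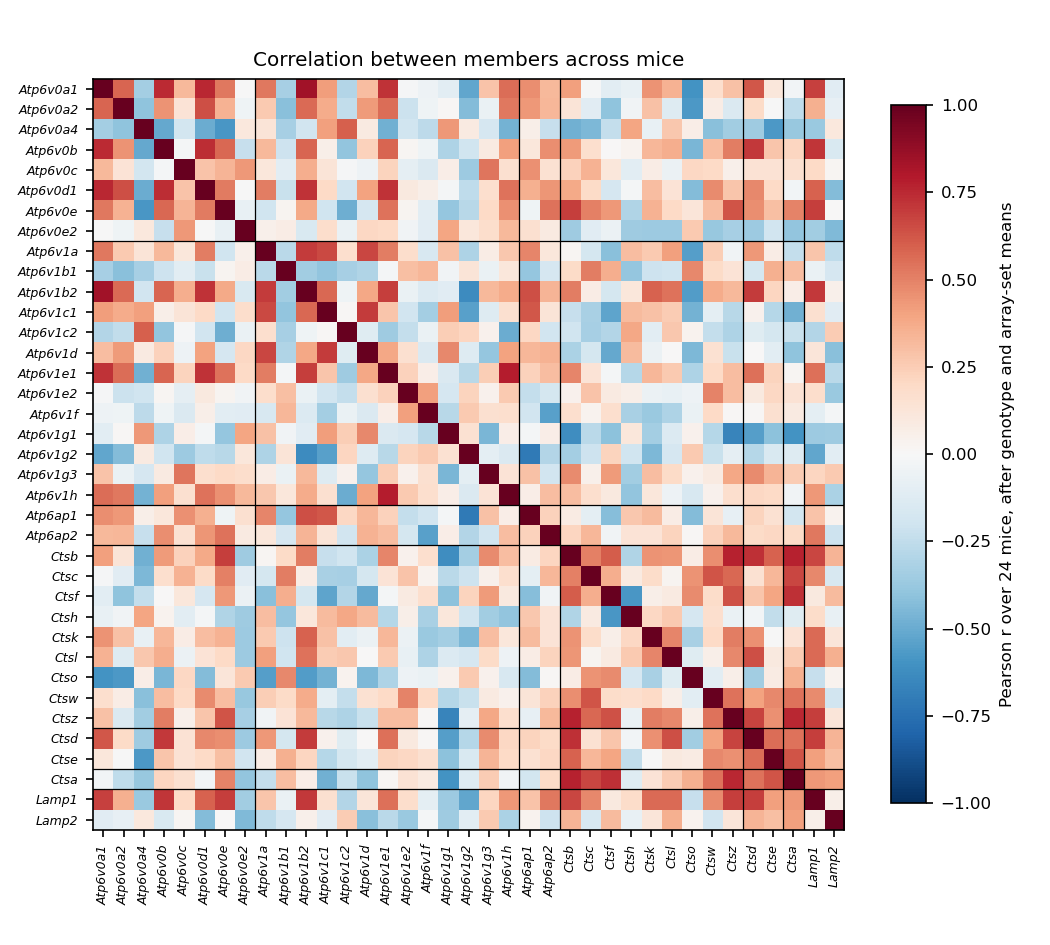
Pearson r among the 37 members over 24 mice after removal of the genotype by array set means, ordered by role group. Cells among the widely expressed pump subunits (median r 0.33, from -0.55 to 0.84) and among the cathepsins (median r 0.36, from -0.58 to 0.77) are mostly positive. Those between widely expressed pump subunits and cathepsins run from -0.66 to 0.71 (median 0.11).

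Members were steadier between mice than most genes, with a median residual SD of 0.12 log2 against 0.16 for all clusters. Lamp2 had the smallest (0.0524, with 0.49% of clusters below it), followed by Ctsb (0.0661), Atp6ap2 (0.0699) and Atp6ap1 (0.0776). The largest was that of Atp6v0a4 (0.657, above 98.2% of clusters), then the isoforms Atp6v1g3 (0.263) and Atp6v1c2 (0.248), which lay near the floor.

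The rest of the lysosome was read from lists of 110 other genes, 103 of them tested, of which 69 were above 0 and 34 below (median 0.02). At an unadjusted p under 0.05, 5 of 103 were higher, against 5.87% of all clusters, and 1 was lower, against 2.5%, and none passed after adjustment. Of 33 glycosidases and other hydrolases 23 were above 0 and 3 were higher at that threshold, with Naglu, which cleaves heparan sulfate, at 0.16 and Naaa, an acylethanolamine amidase, at 0.22, each above the Control mean of its set in all 12 AdipoQ-LPL mice. Of 8 other lysosomal peptidases 7 were above 0 (median 0.07), with Lgmn, the legumain that processes cathepsins, at 0.16 (p = 0.0379) and Cpq at 0.07. Of 21 other membrane proteins tested 16 were above 0, with Cd68, a macrophage glycoprotein, at 0.23 and Sidt2 at 0.06.

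The listed inhibitors were 5 above and 1 below of 6 tested, made up of cystatins (Cst3, Cstb and Cst7) and serpins (Serpinb6a, Serpinb1a and Serpina3n). Of the cystatins, Cst7, which blocks cathepsins in leukocytes, was at 0.17 (limma p = 0.0435) and Cst3 at 0.07. The 10 genes of pump assembly that were tested split evenly, 5 above and 5 below, with Tmem199 at -0.10 (p = 0.0472) and Vma21 at 0.09. The 4 TFEB family genes did not stand out, Tfe3 being at 0.02 and Mitf at 0.04, nor did the 10 Ragulator and related genes tested, 5 above and 5 below, with Flcn at 0.07 and Lamtor4 at -0.06. Of the 9 genes of sorting to lysosomes 4 were above 0, with Igf2r, a mannose 6-phosphate receptor, at 0.07 and Gnptab, which builds its ligand, at -0.09.

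Tcirg1, Ctss and Atp6v0d2 belong to the same families but not to the list. Tcirg1, the a3 isoform of osteoclasts and macrophages, differed by 0.01, at 0.14 in the first set and -0.14 in the second. Ctss, the cathepsin of antigen-presenting cells, was higher by 0.16 (SE 0.0945, p = 0.0993), at 0.27 in the first set and 0.03 in the second. Atp6v0d2, the d isoform of osteoclasts and lipid-laden macrophages, was lower by 0.32 (SE 0.276, p = 0.254), its highest values being 7.29 in AdipoQ-LPL 7 and 8.73 and 7.46 in Control 12 and Control 11. With the macrophage marker mean as a covariate, Atp6v0d2 was at -0.64 and Tcirg1 at -0.11. Both then had an unadjusted limma p under 0.05, against 4.26% of all clusters, and neither passed after adjustment.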

How the data were processed

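The deposited log2 values, which the authors made by RMA, cover 41345 transcript clusters, 27037 of them with a symbol in the authors' workbook. That workbook, from Partek, otherwise holds group means, p-values, ratios and fold changes of the authors' comparisons, which were not used; its cluster identifiers, another kind of unit, were used as deposited for annotation. No version of either tool is given in the sources used here.

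The 20208 named clusters (18665 genes) whose mean reached log2 5 in AdipoQ-LPL or Control mice were fitted with limma 3.58.1 in R 4.3.3, with genotype and array set, two-sided, Benjamini-Hochberg threshold 0.05. The fit was tested on simulated data. Permutation tests used numpy 2.4.6, with all 1287 (first set) or 330 (second set) relabellings, or 100000 permutations for correlations. Named with full statistics were the 10 members of lowest p and the lowest in each role group; of each other lysosomal list, the 2 of lowest p. The members and lists were chosen with earlier results of these data known. Alternatives were the fit without the array set, the methods' t-test, a replicate block, limma trend, array weights, centring, quantile normalization, no floor, the mean over clusters and leaving out each mouse. The number of arrays limits the precision. All 42 genes were in the RefSeq table.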

Additional observations from a re-analysis of the deposited data

How the results depend on the processing

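No member passed after adjustment under any alternative run. Over all clusters 2 passed, 1 by the methods' t-test and 2 to 4 when 1 mouse was left out (4 without AdipoQ-LPL 8 or Control 10). The labels' replicate numbers did not pair the mice (r of the 12 pairs -0.40 to 0.38, 1 above 0.1); with the replicate block, and no array set, 0 clusters passed after adjustment by limma and 499 had an unadjusted p under 0.05, 0 members among them. Members at an unadjusted p under 0.05 numbered 4, with 2 without the array set, 0 with the macrophage marker mean as covariate (chosen after seeing the data), 3 by the methods' t-test, 6 with limma trend, 6 with no floor and 2 to 6 when 1 mouse was left out (2 without AdipoQ-LPL 7 or 11 or Control 4, 6, 7 or 11). Of all 20208 clusters, 1692 were under that threshold in the main fit, 1138 without the array set and 860 with the macrophage covariate. The methods' t-test gave 1155, limma trend 1669, and leaving out 1 mouse 1138 to 2256. The fit with no floor gave 2179 of 27037 clusters, members below the floor among those fitted. After centring, 2 members were higher (Ctsf and Ctsz) and 3 lower (Atp6v0a2, Atp6v1d and Atp6v1g1), against 1507 of 20208 clusters in either direction. Ctsc then had a limma p of 0.0763.

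The median difference of the members was 0.0042, from -0.0083 to 0.0176 when 1 mouse was left out, and -0.0722 without the array set or with the replicate block. Without the array set, by the methods' t-test and with the replicate block, signs turned for Ctsa (-0.0066), Atp6v1b1 (-0.0181), Lamp2 (-0.0526), Flcn (-0.0207), Mitf (-0.0812), Vma21 (-0.0881), Tcirg1 (-0.1516), Sidt2 (-0.0305) and Cpq (-0.0040); the median of all clusters also moved, to -0.08. With the macrophage covariate they turned for Ctsa (-0.0124), Mitf (-0.0348), Tcirg1 (-0.1064), Cd68 (-0.0278) and Ctss (-0.0423). Tcirg1 also turned with array weights (-0.0036), after centring (-0.0042) and without the 3 deviating mice (-0.0225). The other 317 of 352 values over 32 named genes kept their direction. Correlations with macrophage markers that passed numbered 2 in the first set, 1 after centring and 3 on genotype residuals, and 0 in the second and 1 on genotype residuals. With adipocyte markers they numbered 0 in the first and 1 in the second, and 2 and 5 on genotype residuals. With cytotoxic lymphocyte markers they numbered 1 in each set, 0 and 1 after centring, and 2 and 1 on genotype residuals. With neutrophil markers there was 1 in the first set, 0 after centring and 1 on genotype residuals. The cause was not tested. The number of arrays, and values near the floor for Atp6v0a4, Atp6v1b1, Atp6v1c2, Atp6v1e2, Atp6v1f, Atp6v1g3 and Ctse, limit what could be seen.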
